A study of Mus musculus with 64 samples.

Results

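The cochlea was compared with the utricle and its 3 ampullae at E14, E14.5 and E15, the last stages of a series that followed the mouse inner ear from E9 to E15. The arrays were chosen by their labels: 6 arrays of cochlea and 6 arrays of utricle with ampullae, 12 of the 64 arrays in all, set against each other within each stage. All came from CBA/J mouse embryos staged one by one from their external features, and the labels name no genetic change, treatment or sex. Epithelium was loosened with dispase and dissected by hand, and each Affymetrix array measured RNA from 1 pool of 6 to 13 tissues. Each tissue has 2 arrays per stage, taken from different litters. The utricle and the ampullae were pooled before RNA was made, so a difference from the cochlea cannot be assigned to the utricle or to the ampullae, and "utricle" below means that pool.

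The cochlea is the hearing organ and grows as a coiled duct from the ventral otocyst, while the utricle and ampullae are the vestibular organs of its dorsal side, which sense linear acceleration and head rotation. Their sensory patches hold mechanosensory hair cells among supporting cells, and vestibular hair cells form earlier than cochlear ones. An acellular sheet covers each patch: the tectorial membrane in the cochlea, an otoconial membrane in the utricle and a cupula in each ampulla. At E14 to E15 the prosensory cells of the cochlear duct have left the cell cycle and the first cochlear hair cells appear, while utricular hair cells are already being added.

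Values are MAS5 signals, quantile normalized, and a difference is the mean of log2(signal + 16) in the cochlea minus that in the utricle, averaged over the 3 stages with equal weight. This scale understates the change of dim genes, and the lowest deposited value is a floor of 10. A gene is called higher in a tissue when its limma adjusted p is below 0.05 and the difference is at least 1 log2; both were required of every gene described as higher or lower. The label of inner ear epithelium was borne out on all 12 arrays: Oc90, the main otoconial protein, read 7280.2 to 10482 there against 148 and 178 on the 2 arrays of tissue around the ear at E11 to E15. Otog, which encodes otogelin of the acellular membranes, read 8387 to 10064 in the utricle and 8744 to 9848 in the cochlea. One array stood apart. Replicate 1 of the utricle at E14 correlated at 0.903 to 0.947 with the other 5 utricle arrays across genes, and it differed from its replicate by more than 1 log2 in 654 genes. The E15 cochlea replicates differed that much in 247 genes, and the other pairs in 29 to 87.

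Over the 3 stages, 148 of 9352 genes were higher in the cochlea (1.58 percent of genes tested) and 222 were higher in the utricle (2.37 percent). Without the outlying E14 utricle array the counts were 151 and 234. Smaller differences were common: 1084 genes passed the adjusted p in favour of the cochlea and 1222 in favour of the utricle whatever their size. Taken stage by stage, 172 and 254 genes were called at E14, 134 and 199 at E14.5, and 177 and 258 at E15; 85 and 130 genes were called at each of the 3 stages. A difference of at least 3 log2 was reached by 13 genes of the cochlea and 17 of the utricle. In pooled tissue, fewer cells of a type and less RNA per cell cannot be told apart. The shares of 1.58 and 2.37 percent are the background for the counts of list members called over the 3 stages below.

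The genes highest in the cochlea were led by Gsc, the homeobox gene goosecoid. Its signal was 473 to 1247 (median 903) in the 6 cochlea arrays and 10 to 20.3 (median 10) in the 6 utricle arrays, 4 of which were at the floor. It was higher in the cochlea (log2 4.96, SE 0.23, limma adjusted p = 2.04e-20), a size that depends on the floor and on the 16 added before the log. Tac1, the precursor gene of substance P, read 663 to 979.8 (median 803) in the cochlea and 10 to 20.4 (median 14.4) in the utricle. The groups lie far apart and the spread within each is small (log2 4.77, SE 0.13, limma adjusted p = 1.90e-27). Clu, which encodes the secreted chaperone clusterin, read 4946 to 6477 (median 5474) against 189.8 to 348 (median 253) (log2 4.40, SE 0.21, limma adjusted p = 9.05e-20), again with no overlap. Fst, the gene of the BMP and activin antagonist follistatin, read 208 to 325 (median 292) against 10 to 13.8 (median 11.4) (log2 3.42, SE 0.14). Igf1, a growth factor gene, read 295 to 2008 (median 477) against 14.55 to 90.5 (median 43.4) (log2 3.49, SE 0.18); its cochlear signal was far higher at E15, at 2008 and 1673, than on the 4 earlier arrays. A pair of other kept Igf1 probe sets gave smaller differences, 1.79 and 2.59. Also among the 15 leading genes were the water channel gene Aqp5 (log2 3.11, SE 0.20), the carboxylesterase gene Ces1d (log2 3.02, SE 0.16), the angiogenic factor gene Pgf (log2 2.96, SE 0.23) and Fam184b (log2 2.94, SE 0.16). Other kept probe sets of Ces1d differed by 2.99 and 0.36.

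Of the genes highest in the utricle, Kcnd2, which encodes a voltage-gated A-type potassium channel, came first. It read 379 to 781 (median 591) in the utricle and 10 to 20.2 (median 12.3) in the cochlea, where the E15 arrays were at the floor (log2 -4.31, SE 0.20, limma adjusted p = 3.17e-20). Apobec2, a member of the cytidine deaminase family, read 2101 to 3733 (median 2378) against 88.7 to 182 (median 115) (log2 -4.28, SE 0.23, limma adjusted p = 2.47e-18). Penk, the proenkephalin gene, read 405 to 1163 (median 905) against 19.1 to 104 (median 31.9) (log2 -3.98, SE 0.17, limma adjusted p = 7.42e-22). The lowest utricle value of Penk, from the outlying E14 array, was still above every cochlea array. Vit, which encodes the extracellular matrix protein vitrin, was at the floor on all 6 cochlea arrays and read 109 to 333 (median 255) in the utricle, so its difference is a lower bound (log2 -3.22, SE 0.11, limma adjusted p = 2.77e-24). Ap3b2, a neuronal subunit of the AP-3 adaptor complex, differed by -3.75 (SE 0.25), the adaptor gene Tifa by -3.49 (SE 0.14) and the pantetheinase gene Vnn1 by -3.30 (SE 0.17). Matn4, a matrilin of cartilage matrix, read 2465 to 7096 (median 4539) against 177 to 1381 (median 292); it was also high in the tissue around the ear, at 4973 and 6915. For all 30 leading genes the 6 arrays of one tissue lay above the 6 of the other, which the choice of genes by this contrast favours.

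**Figure D1:**
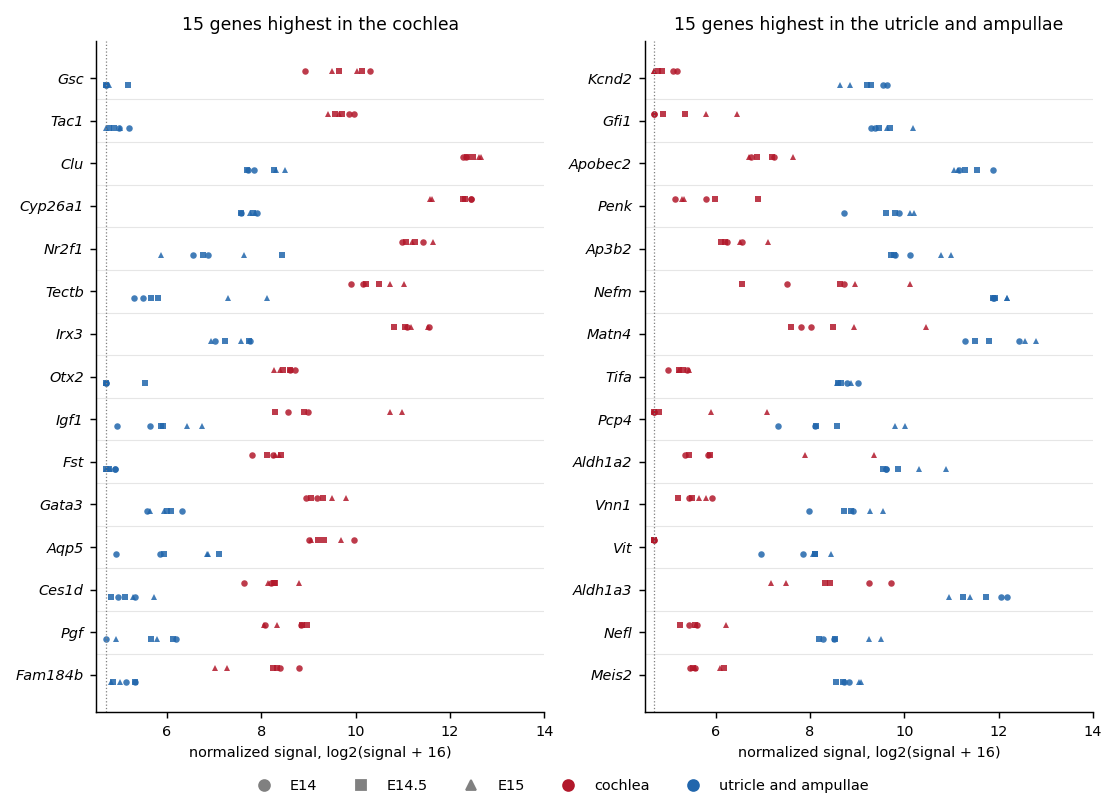
Normalized signal, as log2(signal + 16), of the 15 genes highest in the cochlea and the 15 highest in the utricle with ampullae, one symbol per array (red, cochlea; blue, utricle with ampullae; circles E14, squares E14.5, triangles E15). The dotted line is the floor of 10. In every gene shown the red and blue symbols do not overlap, which the choice of genes by this same contrast favours. Gsc spans 473 to 1247 in the cochlea and 10 to 20.3 in the utricle before the log scale.

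Retinoic acid genes were called on both sides. Retinoic acid is made from retinol by way of retinaldehyde, with Rdh10 and then the Aldh1a enzymes as the catalysts, bound in the cell by Crabp proteins, degraded by Cyp26 enzymes and sensed by Rar and Rxr nuclear receptors. Of 13 measured genes of this pathway, 4 were higher in the cochlea and 5 in the utricle, where 1.58 and 2.37 percent of all genes were. The 5 of the utricle were the 3 synthesis genes Aldh1a1, Aldh1a2 and Aldh1a3, with Rdh10 and the receptor gene Rarb. The 4 of the cochlea were Cyp26a1, both binding protein genes Crabp1 and Crabp2, and the receptor gene Rxrg. The median difference of the list was -0.11, beside 0.01 over all genes.

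Cyp26a1 read 3019 to 5574 (median 4996) in the cochlea and 173 to 225 (median 204) in the utricle (log2 4.36, SE 0.19, limma adjusted p = 4.46e-21). The cochlea arrays were lowest at E15, with 3019 and 3103, and still far above every utricle array. It was as bright in the tissue around the ear, at 3821 and 4321. Aldh1a3 ran the other way, at 1969 to 4584 (median 3014) in the utricle and 128 to 821 (median 317) in the cochlea (log2 -3.19, SE 0.15, limma adjusted p = 2.89e-20). The cochlea read 821 and 595 at E14 and 128 and 163 at E15, and the tissue around the ear 17.4 and 28.8. Aldh1a1 read 215 to 943 (median 427) in the utricle and 20.8 to 89.1 (median 38.3) in the cochlea (log2 -3.04, SE 0.15), with no overlap and its highest values at E15 in both tissues. Aldh1a2 read 731 to 1863 (median 839.6) against 25.0 to 641 (median 42.0) (log2 -3.34, SE 0.27). Its cochlear signal was 25.0 to 43.1 on the 4 arrays of E14 and E14.5 and 641 and 223 on those of E15. The difference was -4.01 at E14 and -1.96 at E15, a change that was not called. Aldh1a2 is also a mesenchymal marker; the summed mesenchymal markers of the E15 cochlea were also at their highest, at a mean of 11786, and their part in this stage difference was not tested. Rarb differed less (log2 -1.15, SE 0.15), without overlap. Rdh10 was just past the threshold of 1 log2 (SE 0.13), and its tissues overlapped, with 90.7 on the lowest utricle array and 93.7 on the highest cochlea array.

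Crabp1 differed from stage to stage. It read 255 and 713 in the cochlea at E14, 1154 and 695 at E14.5 and 7641 and 4830.4 at E15, while the utricle read 138 to 354 (median 187). The difference over the stages was 2.64 (SE 0.25), but it was 0.80 at E14 and 4.91 at E15. The tissue around the ear read 7209 and 8132, about as high as the E15 cochlea. Crabp2 differed by 1.94 (SE 0.23) and Rxrg by 1.89 (SE 0.10), both with no overlap between the tissues. The remaining 4 genes were not called: Dhrs3, a retinaldehyde reductase gene, differed by -0.54 (SE 0.13), and Rarg, Rxra and Rxrb by 0.05, -0.11 and -0.05.

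**Figure D2:**
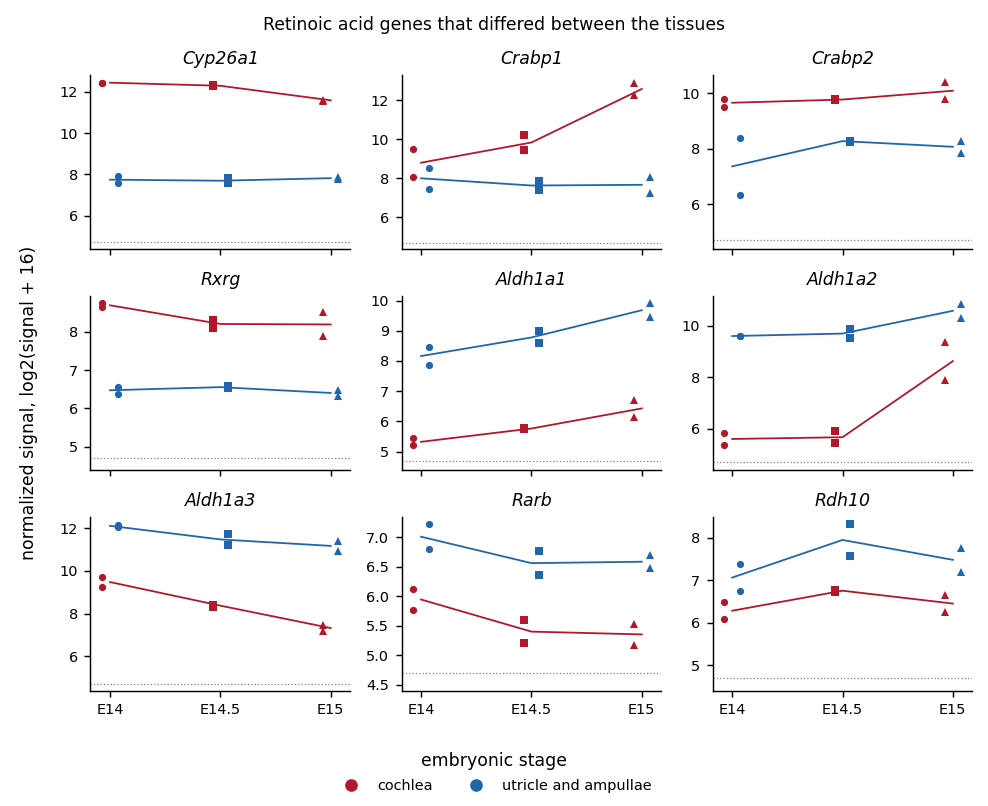
Normalized signal, as log2(signal + 16), by stage for the 9 retinoic acid genes called between the tissues; symbols are single arrays, lines join the means of 2 arrays, and the dotted line is the floor of 10. The axes start near the floor and end differently for each gene. Cyp26a1, Crabp1, Crabp2 and Rxrg lie higher in the cochlea (red), and the Aldh1a genes, Rarb and Rdh10 in the utricle (blue); Crabp1 parts most at E15.

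The start regions of Cyp26a1 and Rarb are shown because each holds a direct repeat of the 6-base unit that retinoic acid receptors bind, although the genes differ in opposite directions. The repeat searched was any of AGTTCA or GGTTCA or AGGTCA or GGGTCA followed, after 5 bases of any kind, by a second of these 4, on both strands, in RefSeq windows (GRCm38.p6) of 250 bases before to 50 after the start of transcription. The windows cover 10 of the 13 measured retinoic acid genes. Gaps of 1 and 2 bases were searched as well, and none of these 10 genes held a repeat with either gap. Over all 32851 windows, 73 and 88 held 1 (0.222 and 0.268 percent). Capitals mark the 2 units in the 150 bases before each start, 5′ to 3′ on the strand of the gene.
Cyp26a1, chr19:37697658-37697807, plus strand: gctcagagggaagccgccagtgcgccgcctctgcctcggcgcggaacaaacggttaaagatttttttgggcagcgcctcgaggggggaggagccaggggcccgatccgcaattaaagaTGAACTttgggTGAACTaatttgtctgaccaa
Rarb, chr14:16575477-16575626, minus strand: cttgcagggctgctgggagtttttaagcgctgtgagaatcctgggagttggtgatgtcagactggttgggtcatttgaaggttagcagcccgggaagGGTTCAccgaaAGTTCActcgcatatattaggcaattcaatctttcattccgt
In Cyp26a1 the repeat is on the opposite strand, at -32 to -16 from the start, and in Rarb it is on the strand of the gene, at -53 to -37. Of all 32851 windows, 32 hold such a repeat (0.0974 percent), and of all 27025 genes with a window, 31 do (0.115 percent). It was found in 1 of the 111 cochlea-high genes with a window, Cyp26a1, and in 1 of the 167 utricle-high ones, Rarb. A match is a run of letters and not a measured binding site.

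Of 16 measured regulators of the ventral otocyst and cochlear duct, 6 were higher in the cochlea (Gsc, Nr2f1, Otx2, Gata3, Ptch1 and Sall1), none was higher in the utricle and 10 were not called, with a list median of 0.58. Nr2f1, an orphan nuclear receptor gene, read 1993 to 3172 (median 2374) in the cochlea and 42.6 to 329 (median 96.2) in the utricle (log2 4.24, SE 0.20, limma adjusted p = 6.24e-20). Its utricle replicates were unlike each other at E14.5 and E15, with 92.3 and 329 and then 42.6 and 183, yet all were far below the cochlea. Otx2, a homeobox gene, was at the floor on 5 of 6 utricle arrays and read 291 to 405 (median 355) in the cochlea (log2 3.67, SE 0.14, limma adjusted p = 2.19e-23). Gata3, whose loss causes deafness, read 474 to 876 (median 589) against 31.95 to 63.7 (median 46.8) (log2 3.37, SE 0.16, limma adjusted p = 5.60e-20). The hedgehog receptor and target gene Ptch1 was higher by 1.20 (SE 0.10), though a second kept probe set gave 0.10, and the zinc finger gene Sall1 by 1.00 (SE 0.13), just past the threshold.

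Genes listed as dorsal or vestibular regulators went both ways, 4 higher in the cochlea and 4 in the utricle of 21 measured, with a median of -0.28. Those of the utricle were Meis2, Tbx3, Hmx2 and Hmx3. Meis2, of the TALE homeobox class, read 357 to 525 (median 422) in the utricle and 27.9 to 56.5 (median 31.2) in the cochlea (log2 -3.09, SE 0.11, limma adjusted p = 2.77e-24). The T-box gene Tbx3 read 1869.6 to 2226 (median 2026) against 365 to 527 (median 496) (log2 -2.05, SE 0.12). Hmx2, a homeobox gene needed for the vestibular organs, was at the floor on 5 of 6 cochlea arrays and read 42.7 to 133 (median 117) in the utricle (log2 -2.18, SE 0.16). Hmx3 differed by -1.12 (SE 0.17), and by -0.96 without the outlying E14 array. Higher in the cochlea were the Iroquois genes Irx3 (log2 3.83, SE 0.19), Irx5 (log2 2.46, SE 0.15) and Irx1 (log2 1.19, SE 0.11) with Sox21 (log2 1.08, SE 0.19). Irx3 showed the largest of these differences, at 1793 to 3004 (median 2224) against 105 to 199.9 (median 154) without overlap. Tbx1 (log2 -0.94, SE 0.19) fell short of the size threshold, and Dlx5 (log2 -0.28, SE 0.13) and Lmx1a (log2 -0.12, SE 0.11) were not called.

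Hair cell genes were higher in the utricle or not called over the 3 stages. Of 13 regulators and early hair cell genes, 5 were higher in the utricle (Gfi1, Pcp4, Myo6, Atoh1 and Myo7a) and none in the cochlea, with a list median of -0.77. Atoh1, the transcription factor gene that starts hair cell formation, read 227 to 341 (median 259) in the utricle and 54.5 to 126 (median 68.8) in the cochlea (log2 -1.62, SE 0.11, limma adjusted p = 1.33e-15). Its cochlear values were highest at E15, at 126 and 85.04, and none reached the lowest utricle array. Gfi1, a zinc finger gene that hair cells need to survive, was at the floor on both E14 cochlea arrays, read 70.8 and 39.2 at E15 and was 606 to 1144 (median 736) in the utricle (log2 -4.30, SE 0.12, limma adjusted p = 9.27e-27). Pcp4, which encodes a calmodulin-binding peptide, read 143 to 1014 (median 313) against 10 to 119.7 (median 10.9) (log2 -3.34, SE 0.19). In both tissues Pcp4 was highest at E15. Myo6, an unconventional myosin of hair cells, differed by -2.07 (SE 0.15); its other kept probe sets gave -0.91 and -1.01. Myo7a, a motor protein of the hair bundle, was dim in the cochlea, at 10 to 34.2 (median 16.4) against 53.2 to 104 (median 92.1) (log2 -1.57, SE 0.17). Pou4f3, a transcription factor gene of hair cells (log2 -0.77, SE 0.17), and the annexin gene Anxa4 (log2 -0.92, SE 0.11) did not reach the size threshold.

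Among 14 genes of the hair bundle and the ribbon synapse, 4 were higher in the utricle (Smpx, Espn, Otof and Cabp2) and none in the cochlea. The median was -0.35. At E15 alone, 1 of the 14 was called higher in the cochlea and 4 in the utricle. Smpx, a cytoskeletal gene mutated in X-linked deafness, read 209 to 1160.0 (median 400.3) in the utricle and 55.5 to 201 (median 84.7) in the cochlea (log2 -2.14, SE 0.17, limma adjusted p = 1.81e-13). Espn, the actin-bundling protein of stereocilia, overlapped between the tissues: 1 of the E15 cochlea arrays read 316 and its replicate 47.6, against 143 to 800.4 (median 278) in the utricle (log2 -1.86, SE 0.32, limma adjusted p = 1.99e-05). Otof, which encodes the calcium sensor otoferlin, had a difference of -0.91 at E14, -0.89 at E14.5 and -2.24 at E15 (log2 -1.34, SE 0.16 over the stages). Its change from E14 to E15 was not called. Cabp2, a calcium-binding protein of the synapse, was at the floor on 5 of 6 cochlea arrays and reached 132 and 110.1 in the utricle at E15 (log2 -1.21, SE 0.12). The calcium channel gene Cacna1d (log2 -0.53, SE 0.13) and the stereocilin gene Strc (log2 -0.67, SE 0.11) were not called.

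**Figure D3:**
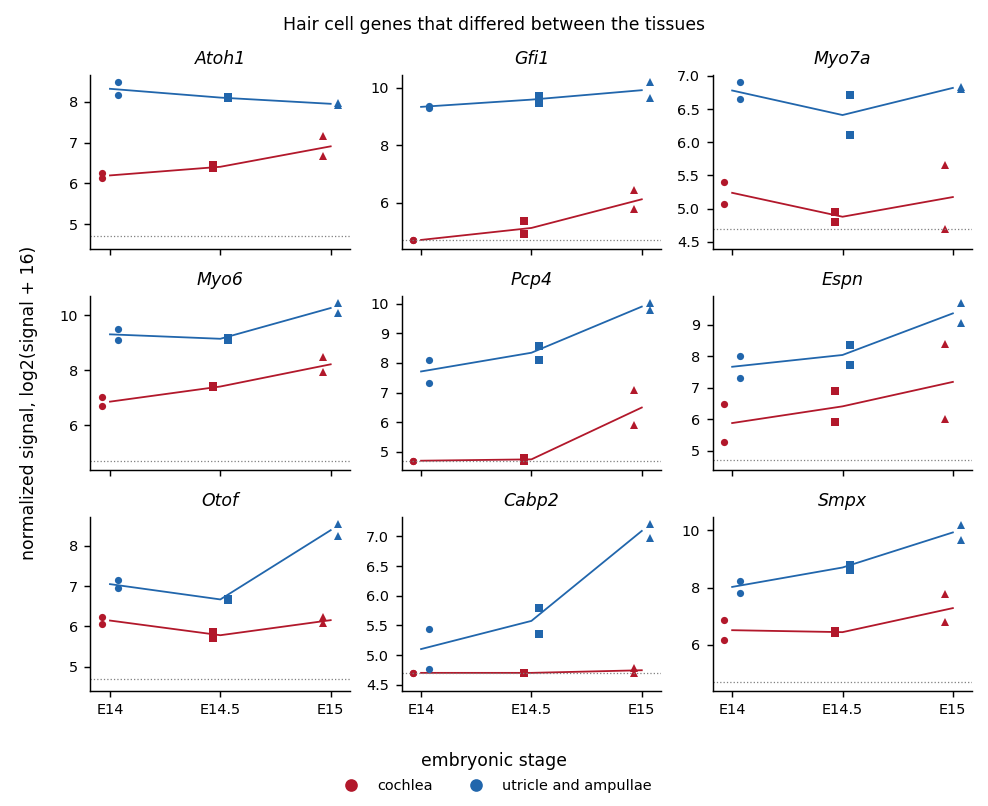
Normalized signal, as log2(signal + 16), by stage for the 9 hair cell genes called between the tissues; symbols are single arrays (red, cochlea; blue, utricle with ampullae), lines join the means of 2 arrays, and the dotted line is the floor of 10. The axes start near the floor and end differently for each gene. All 9 lie higher in the utricle at each stage; the 2 cochlea arrays of E15 part widely for Espn, at 47.6 and 316.

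Prosensory and Notch genes differed in 4 of 22 cases. Hey2, a Notch effector gene, and Isl1, a LIM homeobox gene of the prosensory domain, were higher in the cochlea; Id4, an inhibitor of bHLH factors, and the Notch-modifying glycosyltransferase gene Mfng were higher in the utricle. Isl1 read 767 to 1384 (median 933) against 339 to 525 (median 437) (log2 1.12, SE 0.15) and Id4 742 to 1242 (median 1002) against 2013 to 2823 (median 2638) (log2 -1.33, SE 0.16). Neither pair of groups overlapped. The call of Hey2 (log2 1.08, SE 0.16) rested on the earlier stages, with a difference of 1.75 at E14 and 0.26 at E15, and it was 0.91 without the outlying E14 utricle array. Sox2, which marks the prosensory cells, differed by -0.63 (SE 0.09), the Notch ligand gene Jag1 by 0.12 (SE 0.12) and Lfng by -0.18 (SE 0.13); none was called.

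Of 16 supporting cell and duct floor genes, 5 were higher in the cochlea and 1, the calcium-binding protein gene S100a1 (log2 -1.22, SE 0.18), in the utricle. Besides Clu these were Gjb2, Crym, Cdkn1b and Bmp4. Gjb2, the connexin 26 gene whose mutation is a common cause of inherited deafness, read 334 to 849 (median 545) in the cochlea and 42.5 to 91.4 (median 69.0) in the utricle (log2 2.73, SE 0.15, limma adjusted p = 3.78e-18). Crym, a thyroid hormone-binding crystallin, read 252 to 350.1 (median 309) against 35.0 to 113 (median 84.7) (log2 1.84, SE 0.12). Cdkn1b, which encodes the cell cycle inhibitor p27 and marks the prosensory domain on leaving the cycle, overlapped between the tissues. One utricle array, E14 replicate 1, read 253 where the other 5 read 59.4 to 80.7, and the cochlea read 161 to 512 (median 213) (log2 1.34, SE 0.22, limma adjusted p = 7.36e-06). The other kept Cdkn1b probe set gave 0.73.

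The tectorin genes were higher in the cochlea. Of 12 genes of the tectorial and other acellular membranes, 3 were higher in the cochlea and only Vit in the utricle. Tecta, the alpha-tectorin gene, read 3709.6 to 5207 (median 4386) in the cochlea and 463 to 919 (median 639) in the utricle (log2 2.77, SE 0.12, limma adjusted p = 3.83e-21). Tectb, the beta-tectorin gene, read 936 to 2053 (median 1298) against 23.6 to 262 (median 37.3) (log2 4.13, SE 0.20, limma adjusted p = 8.41e-20), and the utricle was highest at E15 with 262 and 141. Epyc, the gene of the small leucine-rich proteoglycan epiphycan, differed little at E14 (0.53) and by 3.61 at E15, when the cochlea read 1833 and 1997 (log2 1.73, SE 0.13 over the stages). Otog (log2 0.02, SE 0.11) and Otoa, the otoancorin gene (log2 0.78, SE 0.17), were not called. Of 8 otoconial genes none was called in either direction by limma; 5 passed the adjusted p alone and 7 an unadjusted p of 0.05. Oc90 differed by -0.33 (SE 0.13), the NADPH oxidase partner gene Noxo1 by -0.85 (SE 0.14), Pcsk5 by -0.96 (SE 0.20) (0.28 by its other kept probe set) and Slc26a4, the pendrin gene, by -0.04 (SE 0.13).

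Of 23 BMP and TGF-beta genes, 4 were higher in each tissue. Bmp4 read 606 to 794 (median 731) in the cochlea and 292 to 347 (median 316) in the utricle (log2 1.12, SE 0.13), and Tgfb2 1789 to 2643 (median 2105) against 911 to 1188 (median 919) (log2 1.15, SE 0.14), both with Fst and the receptor gene Tgfbr1 (1.02) on the cochlear side. On the utricular side, Bmp6 read 2367 to 3349.6 (median 2602) against 634 to 1136 (median 735) (log2 -1.75, SE 0.09) and Bmp2 61.4 to 121 (median 97.9) against 10 to 23.7 (median 11.1) (log2 -1.92, SE 0.13). The ligands thus differed member by member: Bmp4 in one direction, Bmp2 and Bmp6 in the other. The pseudoreceptor gene Bambi differed by -2.73 (SE 0.37) with a wide spread among utricle arrays, from 80.0 to 542. Tgfbr2 was called (log2 -1.12, SE 0.13), but 2 other kept probe sets gave 0.01 and -0.03.

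Wnt genes were higher in the cochlea in 5 of 26 cases and in the utricle in 2. The 5 include the ligand genes Wnt4 (log2 2.37, SE 0.16) and Wnt7a (log2 1.43, SE 0.23), the secreted antagonist genes Sfrp1 (log2 2.15, SE 0.13) and Frzb (log2 2.15, SE 0.20), and the R-spondin gene Rspo2, an enhancer of Wnt signals. Rspo2 was at the floor on 4 of 6 utricle arrays and read 58.8 to 124 (median 95.4) in the cochlea (log2 2.04, SE 0.11, limma adjusted p = 2.61e-18). The receptor gene Fzd4 (log2 -1.11, SE 0.14) and the feedback inhibitor gene Nkd1 (-1.01) were higher in the utricle. Other kept probe sets of Sfrp1 gave 2.25, 2.06 and 0.47. None of 19 FGF genes was called over the 3 stages, although 8 passed the adjusted p of limma alone and 10 an unadjusted p of 0.05. Fgf9 differed by -0.76 (SE 0.12) and the receptor gene Fgfr1 by 0.50 (SE 0.09). Fgf10 differed by -0.08 (SE 0.17), and Fgfr3, a receptor gene of supporting cells, by 0.39 at E14 and 1.60 at E15, a change that was not called.

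Genes of secreted peptides and the insulin-like growth factor system were called in 8 of 17 cases, 4 on each side. With Tac1 and Igf1, the cochlea was higher in Edn1, the endothelin 1 gene, and in Igf2 (log2 1.14, SE 0.10). Edn1 was at the floor on all 6 utricle arrays and read 86.7 to 131 (median 108) in the cochlea, a lower bound (log2 2.23, SE 0.09, limma adjusted p = 2.60e-22). Beside Penk, the utricle was higher in 3 genes of binding proteins of insulin-like growth factors, Igfbp3 (log2 -1.78, SE 0.17), Igfbp2 (log2 -1.37, SE 0.14) and Igfbp4 (log2 -1.28, SE 0.18). The called growth factor genes and the called binding protein genes thus lay on opposite sides; Igfbp5 was not called (log2 0.22, SE 0.06).

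Ion and water transport genes were higher in the cochlea in 5 of 24 cases: Aqp5, Gjb2, the sodium pump subunit gene Atp1b1, the carbonic anhydrase gene Car13 and the proton pump subunit gene Atp6v1b1. Aqp5 read 497 to 976 (median 598) against 14.1 to 122 (median 72.0) and Atp1b1 1266 to 1782 (median 1506) against 366 to 619.8 (median 445) (log2 1.67, SE 0.16). Neither overlapped. Cldn8, which encodes a tight junction claudin, was the single gene of the list higher in the utricle, at 427 to 809 (median 526) against 57.2 to 238 (median 89.3) (log2 -2.19, SE 0.14, limma adjusted p = 1.41e-16). A pair of further epithelial genes shared its direction, Krt7 (log2 -1.63, SE 0.14) and Cldn4 (log2 -1.07, SE 0.20), of 20 epithelial markers measured, none of which was higher in the cochlea.

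Of 39 cell cycle genes, Ccnd2 alone was called over the 3 stages, where 2.37 percent of all genes were higher in the utricle. This D-type cyclin gene read 5449 to 8644 (median 6518) in the utricle and 928 to 3256 (median 1719) in the cochlea (log2 -1.92, SE 0.08, limma adjusted p = 9.07e-22), and its difference was -1.42 at E14, -1.91 at E14.5 and -2.42 at E15. Of 6 other Ccnd2 probe sets, 5 were kept and gave -0.73 to -2.35, and the dimmest, not kept, gave -0.28. Ccnd1, another D-type cyclin gene, differed by 0.65 (SE 0.07), short of the size threshold, while its other kept probe sets gave 1.17 and 0.86. The list median was 0.09 over the 3 stages, 0.28 at E14, 0.30 at E14.5 and -0.38 at E15. Its median change of the difference from E14 to E15 was -0.64, beside -0.03 over all genes. That change was called towards the utricle in 3 of the 39, where 0.609 percent of all genes were called in either direction. The number of genes called for it depended on single arrays. Among 14 inhibitors and cell cycle exit genes, Btg1, an antiproliferative gene, read 731 to 1819.6 (median 912) in the cochlea and 146 to 235 (median 181) in the utricle (log2 2.33, SE 0.14, limma adjusted p = 4.24e-17); with Cdkn1b it made up the 2 genes called, both in the cochlea. Of 30 axon guidance and neurotrophin genes, the ephrin system genes Epha7 (log2 2.39, SE 0.16) and Efnb2 (log2 1.07, SE 0.12) were higher in the cochlea and Sema5a (log2 -2.02, SE 0.16) and Nrp2 (log2 -1.81, SE 0.20) in the utricle. Other kept Efnb2 probe sets gave 0.98 and -0.29.

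Markers of cells that can adhere to dissected epithelium differed too. The summed signal of 17 ganglion neuron genes was 1136 to 2432 in the cochlea arrays and 5159 to 6307 in the utricle arrays, against 16788 and 17780 around the ear. The groups did not overlap, but most of the utricle's sum was Nefm, at 3744 to 4599 (median 3850.1) in the utricle and 77.9 to 1092 (median 394) in the cochlea (log2 -3.57, SE 0.37, limma adjusted p = 4.73e-10). Nefl, the light neurofilament gene, was higher in the utricle as well (log2 -3.10, SE 0.21), while the neuronal gene Stmn2 was higher in the cochlea (log2 2.04, SE 0.38) and the other 14 were not called. The other kept Stmn2 probe set gave 0.91, short of the size threshold. Both neurofilament genes are among the 15 leading genes of the utricle. The part of attached neurons in the utricle-high genes was not tested.

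Mesenchymal genes summed to 6348 to 12335 in the cochlea and 4420 to 6857 in the utricle over 23 genes, against 22350 and 24594 around the ear, and the mean of the E15 cochlea arrays was 11786. Of these 23, Lum (log2 2.86, SE 0.22), Dcn (log2 1.92, SE 0.15) and Postn (log2 1.74, SE 0.14), all genes of extracellular matrix proteins, were higher in the cochlea and Aldh1a2 in the utricle. Col1a1, a fibrillar collagen gene that mesenchyme expresses strongly, was dim in both tissues, at 10 to 85.02 (median 13.9) in the cochlea and 10 to 180.4 (median 26.4) in the utricle, and 2632 and 3472 around the ear. Lum in the cochlea, at 2029 to 5227 (median 2768), was above its level around the ear, 1587 and 2176. Melanocyte genes reached 2634 in the E15 cochlea against 789 as the lowest cochlea array and 938 to 1179 in the utricle. Over the 3 stages only Mitf was called of 8, higher in the utricle (log2 -1.32, SE 0.13). At E15 alone, 2 of the 8 were called higher in the cochlea and 1 in the utricle. Cartilage genes overlapped in their sums, with Cnmd, the chondromodulin gene, higher in the cochlea (log2 1.54, SE 0.09) and Matn4 in the utricle. Red cell, endothelial, macrophage and glial sums overlapped between the tissues, with 1 gene each called among endothelial (Kdr, log2 -1.19, SE 0.13), macrophage (Mrc1, log2 -1.03, SE 0.27) and glial (Cnp, log2 -1.47, SE 0.20) markers, all higher in the utricle, although 2 other kept Cnp probe sets gave -1.33 and 0.35; the globin gene Hbb-bh1 and the erythroid gene Hemgn were at the floor on all 12 arrays. No red cell, muscle or immediate early gene was called by limma; at an unadjusted p of 0.05, 1 of 8, 4 of 8 and 7 of 18 passed, and at the adjusted p alone 1, 2 and 4. The part of these cells in the differences was not tested.

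**Figure D4:**
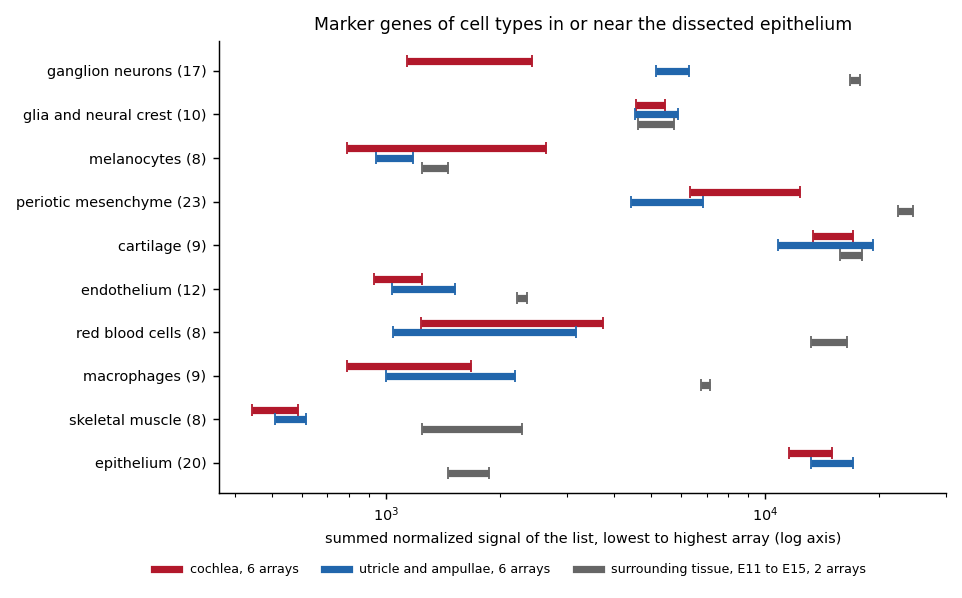
Summed normalized signal of 10 marker lists, from the lowest to the highest array, on a log axis; red, the 6 cochlea arrays; blue, the 6 utricle arrays; grey, the 2 arrays of tissue around the ear at E11 to E15. The number of measured genes stands after each name. Only the ganglion neuron bars of the tissues, 1136 to 2432 and 5159 to 6307, lie apart; the epithelial bars, 11573 to 17067, lie far above the surrounding tissue.

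Much of the difference was in place before E14. At E12.5 to E13.5, measured on 12 other arrays of the same tissues, 108 genes were higher in the cochlea (1.15 percent) and 156 in the utricle (1.67 percent). Of the 148 genes higher in the cochlea at E14 to E15, 81 (54.7 percent) were among those 108, of which they made up 75 percent. Of the 222 of the utricle, 112 (50.5 percent) were among the 156, or 71.8 percent of them. None was called in the opposite direction, and the earlier difference had the same sign for 141 of 148 and 219 of 222 genes. Tac1 differed by 4.38 in the earlier window and 4.77 in the later one, Clu by 4.51 and 4.40, and Kcnd2 by -4.40 and -4.31. Meis2 differed by -3.09 in both windows. At E11 to E12 the cochlea was set against the still undivided vestibular organ. Of all 9352 genes, 64 were called higher in the cochlea and 71 in the vestibular organ. These already included 41 of the 148 and 44 of the 222, each in its own direction.

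The difference itself changed between the windows in 94 genes (1.01 percent). It changed towards the cochlea in 40 and towards the utricle in 54. The 2 windows share no array, but the later one also enters the differences given above. Hair cell genes were among the largest on the utricular side. The Gfi1 difference moved by -2.32 (SE 0.18), from -1.98; Gfi1 rose by 2.93 in the utricle while the cochlea, not called, differed between the windows by 0.61. Smpx moved by -2.22 (SE 0.24), having risen by 3.39 in the utricle and 1.17 in the cochlea. Spag6l, a gene of the axoneme, moved by -2.29 (SE 0.22) and read 416 to 834 (median 546) in the later utricle against 42.1 to 80.2 (median 55.3) in the cochlea. Of the list of hair cell regulators, 3 of 13 moved this way, and of the bundle and synapse list 4 of 14. Gnb3, a G protein subunit gene, was at the floor on every late cochlea array and at 40.4 to 157 (median 82.2) in the utricle. Penk moved by -1.81 (SE 0.23) and Fez1, a gene of axonal transport, by -1.81 (SE 0.25).

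Hey2 and Cars moved the same way from an earlier difference in favour of the cochlea. Hey2 went from a difference of 3.20 to 1.08, with a rise of 1.46 in the utricle and a change of -0.66, not called, in the cochlea. Cars, a cysteinyl-tRNA synthetase gene, went from 1.85 to 0.00, rising by 3.19 in the utricle and 1.35 in the cochlea. These values are from 1 probe set, and the other kept Cars probe set differed by -0.22 in the later window.

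Towards the cochlea, the largest movers were Crabp1 (log2 3.27, SE 0.35), Ecrg4 (log2 2.58, SE 0.31), Igf1 (log2 2.45, SE 0.25), Epyc (log2 2.43, SE 0.19) and Lum (log2 2.30, SE 0.31). Crabp1 rose by 1.20 in the cochlea and fell by 2.07 in the utricle. Ecrg4, which encodes a secreted peptide precursor, did not differ beyond the threshold earlier (-0.05) and read 106 to 1834 (median 588) in the late cochlea against 22.7 to 179 (median 76.3) in the utricle. Itgb6, an integrin of epithelia, went from -0.04 to 1.77. Anxa2, the annexin A2 gene, was higher in the earlier utricle and not called later, at -1.73 and 0.35. Tectb moved by 1.86 (SE 0.28), rising by 2.77 in the cochlea. The regulators Nr2f1 (1.71), Gsc (1.35) and Irx3 (1.15) moved with them. For Nr2f1 the cochlea changed by -0.03 and the utricle fell by 1.73.

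**Figure D5:**
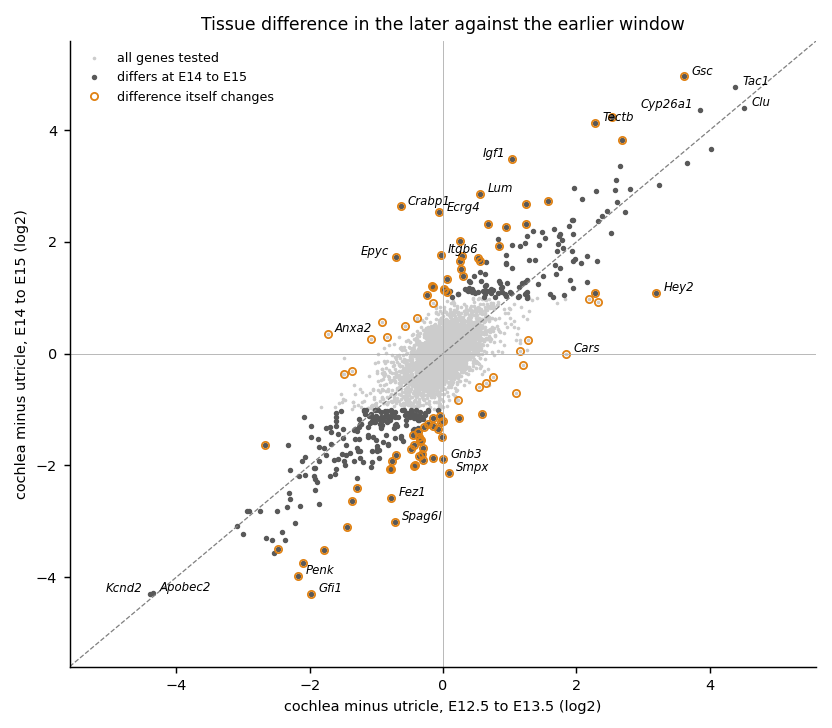
Cochlea minus utricle in log2 for each of the 9352 genes, at E12.5 to E13.5 on the horizontal axis and at E14 to E15 on the vertical axis; dark points were called in the later window, and orange circles mark the 94 genes whose difference changed between the windows. Points on the dashed line have equal differences; Kcnd2, at -4.40 and -4.31, lies close to it, while Gfi1, Spag6l and Penk lie below it and Crabp1, Igf1 and Lum above.

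Within the 3 stages, 57 genes (0.609 percent) changed their difference from E14 to E15, 31 towards the cochlea and 26 towards the utricle. This count depended on single arrays. It was 28 without replicate 1 of the E14 utricle, 468 without its replicate 2, 12 with array weights, and 5 when only the 12 arrays compared were fitted. Of the 13 such genes named here, 11 passed without replicate 1 of the E14 utricle, and 3 (Epyc, 1700120B22Rik and Cd80) with only those 12 arrays. Epyc changed by 3.08 (SE 0.32) and Crabp1 by 4.11 (SE 0.61) towards the cochlea. Calb1, the gene of the calcium buffer calbindin, read 85.8 and 51.4 in the E14 cochlea, 169 and 129.8 at E14.5 and 1038 and 928 at E15, against 66.9 to 256 (median 193) in the utricle. Its difference changed by 2.33 (SE 0.32). Atoh1 changed by 1.08 (SE 0.26), a call lost under several other fits, array weights included. Of the list of hair cell regulators, 2 of 13 changed towards the cochlea and 0 towards the utricle. In the bundle and synapse list, 1 of 14 changed each way. The unnamed gene 1700120B22Rik was at the floor on all arrays but those of the E15 cochlea, which read 289 and 162; it read 966 and 1063 around the ear. Rhov, a small GTPase gene, changed by 2.37 (SE 0.54) and the membrane protein gene Emp3 by 2.45 (SE 0.54), the latter without a call when the outlying E14 array was left out (1.84).

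Towards the utricle, Cd80, which encodes a ligand of T cell receptors for costimulation, differed by 1.32 at E14 and -2.15 at E15. It read 243 to 347 on the 4 cochlea arrays of E14 and E14.5 and 10 and 15.2 on those of E15, while the utricle read 92.9 to 131 (median 101) (change of the difference log2 -3.47, SE 0.31, limma adjusted p = 1.82e-09). Ncoa4, a ferritin autophagy receptor gene, read 90.4 to 128 on the 4 earlier cochlea arrays and was at the floor on both of E15 (log2 -2.07, SE 0.49). Over the 3 stages this Ncoa4 probe set differed by -0.24 and its other kept probe set by -0.05. The other 4 genes were highest in the E15 utricle. Cabp2 changed by -1.95 (SE 0.28), Mlf1 by -1.81 (SE 0.36), Dnajc5b, a chaperone gene, by -1.67 (SE 0.27) and Mns1, a gene of ciliary axonemes, by -1.56 (SE 0.30). Dnajc5b was at the floor on all 6 cochlea arrays and read 119 and 94.6 in the E15 utricle. Mlf1, at 184 and 159.8 in the E15 utricle, was not called without the outlying E14 array (-1.62).

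The saccule, the other otolith organ, was measured at the same stages on 6 arrays and was near the cochlea for some of these genes and near the utricle for others. Tac1, Cyp26a1, Fst and Irx3 had utricle-like saccule medians of 19.4, 175, 10 and 173. Gata3 was lower still, at a median of 23.5 against 46.8 in the utricle. Otx2, by contrast, had a saccule median of 541, beside 355 in the cochlea and 10 in the utricle, and Wnt4 one of 723, beside 313 and 43.6. Of the utricle-high genes, Gfi1 (1313), Aldh1a3 (3848) and Nefm (3989.9) had medians in the saccule at or above those of the utricle. Aldh1a2 (17.0), Aldh1a1 (22.7), Vit (10) and Tbx3 (193) had saccule medians below those of the cochlea or at the same floor. These saccule values are set beside the others without a test.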

How the data were processed

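RNA of 64 pools of mouse inner ear and surrounding tissue was hybridised to 1-colour Affymetrix arrays. The deposited probe set intensities were made by the authors with MAS5, per the submitters' processing notes; neither its version nor its scaling target is stated there, and each array has a floor of exactly 10. The 2 percent trimmed means of the 12 arrays compared ranged from 234.9 to 292.9, so the 64 arrays were quantile normalized and transformed to log2(signal + 16). The floor held 6.49 to 7.23 percent of the values of each of the 12 arrays, which limits what can be said of dim genes.

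Of 22626 probe sets, 20380 carry 1 gene symbol, 691 several and 1555 none; only those with 1 were named. Probe sets at or above the array median on at least 2 of 64 arrays were kept, and the brightest stood for its gene, which gave 9352 genes. limma 3.58.1 in R 4.3.3 fitted 1 coefficient for each of 32 groups of 2 arrays (lmFit, then eBayes with a trend, 32 residual degrees of freedom), and Benjamini-Hochberg adjustment ran over all genes, two-sided. The step was tested on simulated data. Replicates are pools from different litters. Same-numbered cochlea and utricle arrays deviated together (correlation 0.346 at E14, 0.266 at E14.5 and 0.269 at E15), so the numbers were taken to pair the samples, and a fit with the replicate number as a block was run beside the main one.

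Named genes were the 15 largest differences in each direction with 1 sign at all 3 stages, the 8 largest changes between windows and the 6 largest from E14 to E15 in each direction, and up to 6 members of each of 28 gene lists with the largest differences, together with a fixed panel; other called members of a list are named to account for its count. The genes compared and the lists were chosen with earlier results of these data known. Alternatives changed the pseudocount, the filter, the normalization, the choice of probe set, the array weights, the arrays fitted and the stages, and left out each array in turn.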

Additional observations from a re-analysis of the deposited data

Results flagged for a closer look

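The size of the difference between cochlea and utricle varied between stages, by a limma test of that change, in 45 cases among the named genes, 13 between E14 and E15 and 32 between the window of E12.5 to E13.5 and that of E14 to E15. They are given as log2 changes of the cochlea minus utricle difference, positive towards the cochlea, and their cause was not tested.

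From E14 to E15 the difference moved towards the cochlea for Crabp1 by 4.11, 1700120B22Rik by 3.16, Epyc by 3.08, Emp3 by 2.45, Rhov by 2.37, Calb1 by 2.33 and Atoh1 by 1.08. It moved towards the utricle for Mns1 (-1.56), Dnajc5b (-1.67), Mlf1 (-1.81), Cabp2 (-1.95), Ncoa4 (-2.07) and Cd80 (-3.47). Other fits left out single E14 or E15 arrays, or used array weights, a replicate block or only the 12 arrays compared. Epyc, 1700120B22Rik and Cd80 passed in each of them. Crabp1, Calb1, Mns1, Dnajc5b and Cabp2 passed in each but the fit of the 12 arrays, and Emp3, Rhov, Atoh1, Mlf1 and Ncoa4 failed in several.

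Between the windows, 14 genes moved towards the cochlea: Crabp1 (3.27), Ecrg4 (2.58), Igf1 (2.45), Epyc (2.43), Lum (2.30), Anxa2 (2.07), Tectb (1.86), Itgb6 (1.80), Nr2f1 (1.71), Gsc (1.35), 1700120B22Rik (1.30), Cdkn1b (1.28), Irx3 (1.15) and Gjb2 (1.15). Towards the utricle the genes of the hair cell lists included Gfi1 (-2.32), Smpx (-2.22), Myo6 (-1.29), Myo7a (-1.23) and Cabp2 (-1.21). The same direction was found for Spag6l (-2.29), Fez1 (-1.81), Penk (-1.81), Mns1 (-1.67), Nefl (-1.65) and Ap3b2 (-1.65). The other genes were Hey2 (-2.11), Gnb3 (-1.89), Cars (-1.84), Matn4 (-1.73), Dnajc5b (-1.48), Mlf1 (-1.39) and Tifa (-1.02). In the same kinds of fit, with 24 arrays in place of 12, Tifa failed the size threshold in 4, at -0.95 to -0.98, and Cdkn1b in 1, at 0.99 without replicate 2 of the E14 utricle; the other 30 genes passed in each.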

How the results depend on the processing

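Of the 75 named genes refitted, none called over the 3 stages reversed its sign in the alternatives that held it. The filter of 16 arrays held only 63 of the 75. Differences near 0 that were not called, such as that of Cars, did reverse. Of 95 other kept probe sets of the genes taken by the naming rule, marker genes included, 76 had the sign of the one used. The counts of genes higher in the cochlea and in the utricle, 148 and 222, ranged from 146 to 155 and from 203 to 245 when 1 array was left out. With a pseudocount of 64 they were 101 and 140, with a pseudocount of 1 they were 175 and 280, and with values as deposited 128 and 240, where the median gene stood at -0.06. The replicate block gave 148, 222, 75 and 94 for the cochlea, the utricle, the change from E14 to E15 and the change between the windows. It changed no call over the 3 stages among the 75 named genes refitted, and the 45 stage differences flagged above passed in it. Calls of other genes for the change from E14 to E15 did differ from the main fit. The change from E14 to E15, 57 genes, was 12 with array weights, 5 with only the 12 arrays of the contrast, and 23 to 468 with 1 array left out; the cause was not tested. The change between the windows, 94 genes, was 51 with a pseudocount of 64, 60 without the E15 arrays (a setting chosen after seeing the data), and 80 to 112 with 1 array left out.

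With a pseudocount of 64, 9 named genes fell below the size threshold: Hey2 (0.88), Gnb3 (-0.98), 1700120B22Rik (0.64), Cabp2 (-0.61), Mlf1 (-0.97), Dnajc5b (-0.76), Mns1 (-0.96), Myo7a (-0.86) and Hmx3 (-0.65). Hey2 did so with values as deposited (0.97) and without the E14 arrays (0.75), and Hmx3 without the E14 arrays (-0.95). Without the E15 arrays Epyc (0.79), Cdkn1b (0.96), Cabp2 (-0.64), Mns1 (-0.55) and 1700120B22Rik (0) were not called, and Cd80 was (1.45). Tbx1 was called with values as deposited (-1.06). With 2 arrays in a group and a floor of 10, a small difference in a dim gene was not detectable.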
